A study of Danio rerio with 10 samples.

Results

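The genes described here are 10 regulators of the passage from the G1 phase into DNA synthesis: the pocket protein genes rb1, rbl1 and rbl2, the D cyclin genes ccnd1, ccnd2a and ccnd3, their kinase genes cdk4 and cdk6, and the E cyclin genes ccne1 and ccne2. They were chosen by symbol, and each had 1 row among the 32233 rows of the deposited expression table. Their transcripts were measured by RNA sequencing in gata1-positive cells, erythroid cells sorted from zebrafish embryos aged 24 hours post fertilization. The mutant group (5 libraries, replicates 1, 3, 4, 5 and 6) came from embryos labelled sf3b1 mutant, and the other group (5 libraries, replicates 2 to 6) from their siblings, titled wild type, although the genotype tag of sibling 2 says mutant. The labels give neither the allele nor the number of embryos in a library, nor is it stated that each library is its own clutch. The p-values therefore cover only the spread among these libraries, which may be technical.

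Pocket proteins bind E2F transcription factors and hold back the genes of DNA replication. In mammals, cyclin D with Cdk4 or Cdk6, and then cyclin E with Cdk2, phosphorylate the pocket proteins, which releases E2F. Rb acts mainly on the activating E2Fs, whereas the proteins encoded by Rbl1 (p107) and Rbl2 (p130) pair mostly with repressive E2Fs, and p130 is the pocket protein typical of resting cells. Red cell precursors divide rapidly and then leave the cycle as they mature, and in the mouse Rb is needed for that exit. The sf3b1 protein is part of the U2 particle of the spliceosome and helps it to recognise intron branch points.

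Values are FPKM, which scales fragments by transcript length and library total, so levels of different genes can be set side by side. Absolute depth is unknown. Estimated from the most common ratio of low values between mutant 1 and each library, depth relative to mutant 1 ran from 0.574 in mutant 3 to 1.25 in sibling 6. The mutated gene sf3b1 lay at 16.0 to 21.3 FPKM in mutants and 36.3 to 43.9 FPKM in siblings, and sibling 2 was at 41.0 FPKM. The first principal component (27.1% of variance) had mutants at -34.2 to -30.4 and siblings at 23.8 to 40.5, with sibling 2 at 23.8. Mutant 1 and sibling 2 stood apart on the second (17.2%), at 50.9 and 45.5, with the other libraries between -35.4 and -2.68. All 15 erythroid markers, among them gata1a, klf1 and embryonic globins, were above 0 in every library, with summed levels of 2587 to 9038 FPKM in mutants and 5135 to 22963 FPKM in siblings. The globin rows hbae3 and hbbe3 made up most of the sum in every library. Of the 15 erythroid rows 14 had a log2 fold change (mutant minus sibling) below 0, with a median of -0.91. By limma 2 were lower in mutants, rhag (adjusted p = 0.0141) and epb41b (0.0466), and 0 higher. The 16 neutrophil and macrophage rows summed to 174.4 to 377.9 FPKM in mutants and 455.5 to 786.6 FPKM in siblings, groups that did not overlap. The 25 epidermal rows summed to 529.8 to 1509 FPKM and 536.8 to 1112 FPKM, highest in mutant 1 and sibling 2 and next in mutant 3. The summed levels of endothelial, thrombocyte, neural and muscle markers overlapped between the groups, but single rows differed. By limma 4 of 13 tested endothelial, 1 of 4 thrombocyte, 1 of 6 muscle and 0 of 9 neural rows were lower in mutants. So were 8 of 14 tested neutrophil and macrophage rows and 1 of 22 epidermal rows. Over all genes tested 8.74% were lower and 5.59% higher. The log2 fold change was below 0 for 55.5% of all genes tested, with a median of -0.06. Ranges were apart for endothelial mrc1a (means 4.52 FPKM in mutants and 27.1 FPKM in siblings) and stab1 (3.99 and 8.26 FPKM). They were also apart for thrombocyte f5 (1.80 and 13.2 FPKM) and for neural pax6a (1.38 and 2.45 FPKM), which limma did not call. The epidermal row called lower, pfn1, had ranges apart as well (means 81.1 and 138.1 FPKM). In sorted bulk samples, fewer cells of a type and less RNA per cell cannot be told apart.

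In sibling cells ccnd1 was the most abundant of the 10 transcripts and ccnd3 the least. ccnd1 had a mean of 104.8 ± 42.1 FPKM (SD, n = 5), 4.64 times that of cdk6, the next in order. cdk6 (22.6 FPKM), rb1 (20.1 FPKM) and rbl1 (19.7 FPKM) followed with overlapping ranges. Below them cdk4 (9.91 FPKM), ccne2 (7.96 FPKM) and ccnd2a (7.75 FPKM) also overlapped one with the next. ccne1 (2.23 FPKM), rbl2 (1.53 FPKM) and ccnd3 (0.639 FPKM) formed the low end, each overlapping its neighbour. In mutants rbl2 had a higher mean (5.49 FPKM) than ccne2 (3.47 FPKM) and ccne1 (1.89 FPKM), although the ranges of rbl2 and ccne2 overlapped.

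Of the 9 genes that passed the filter of a mean of at least 1 FPKM, rbl2 rose in mutants, rb1 and ccne2 fell, and the other 6 did not pass the test (limma, Benjamini-Hochberg adjusted p under 0.05 over 13003 genes). Among all genes tested 5.59% rose and 8.74% fell, and 14.3% changed in either direction. The median log2 fold change of the 9 genes was -0.16, beside -0.06 over all genes tested. Mutant and sibling ranges were apart for the 3 genes that changed and for no other of the 9; rbl2 lay above and rb1 and ccne2 below. Over all genes tested such ranges were apart for 12.2%, with mutants above for 4.98% and below for 7.26%. None of the 10 genes lies on chromosome 9, which carries sf3b1.

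**Figure D1:**
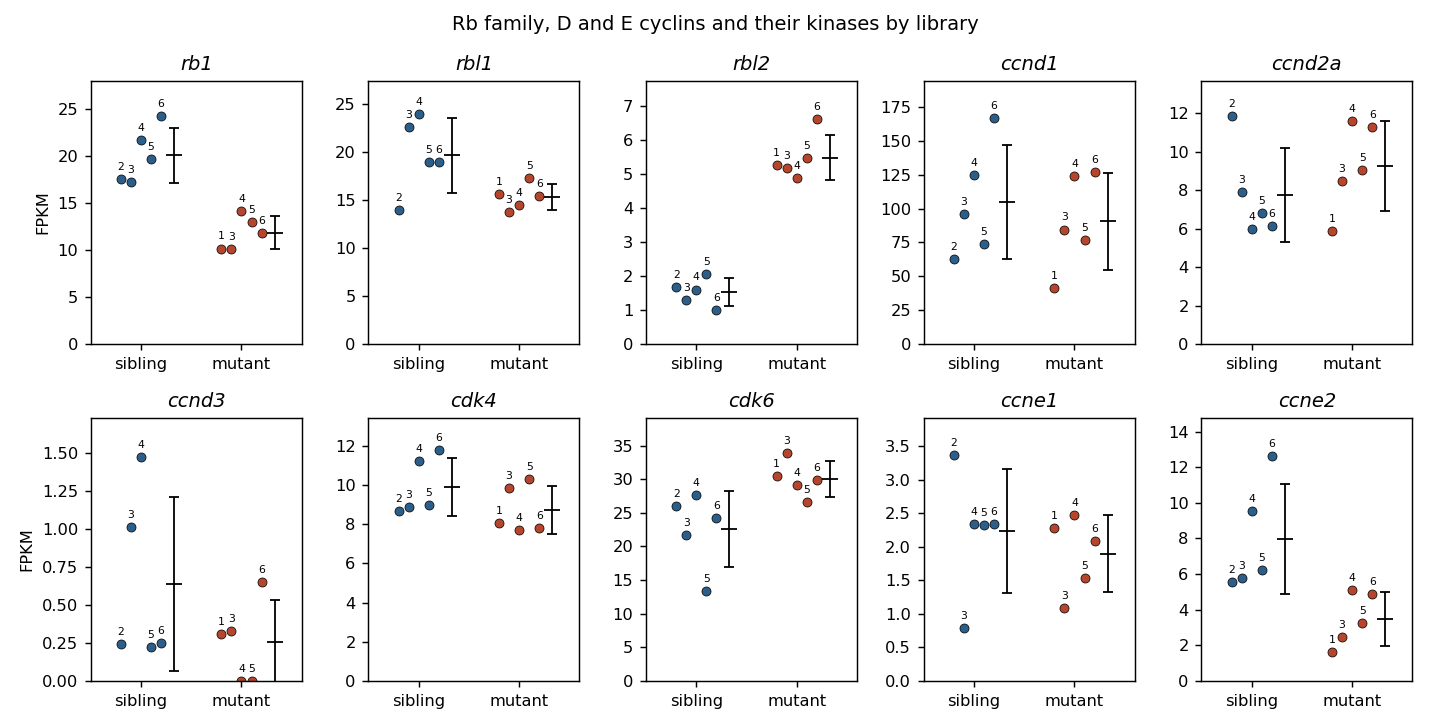
FPKM of each of the 10 genes (vertical axes, linear, starting at 0) in the 5 sibling and 5 mutant libraries; numbers beside the points are replicate numbers, and bars show the mean and SD, the lower bar of ccnd3 in mutants being cut at 0. The groups are apart for rb1, rbl2 and ccne2 and overlap for the rest.

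rbl2 (ENSDARG00000045636, GRCz10 chromosome 25, 35506531 to 35539644), the p130 gene, was higher in mutants, with no overlap. Its levels were 5.28, 5.17, 4.88, 5.49 and 6.63 FPKM in mutants 1, 3, 4, 5 and 6, against 1.69, 1.29, 1.61, 2.07 and 1.01 FPKM in siblings 2 to 6. The lowest mutant, mutant 4, stood well above the highest sibling, sibling 5, and sibling 2 sat with its own group. The means were 5.49 ± 0.67 and 1.53 ± 0.40 FPKM (SD, n = 5), a ratio of mean levels of 3.58. On the log2(FPKM + 1) scale the fold change was 1.37 (SE 0.15, 95% interval 1.03 to 1.70, limma adjusted p = 2.14e-04). That scale understates changes of low genes, and with 0.1 FPKM added in place of 1 the log2 fold change was 1.80. The call held in all 21 alternatives that tested the gene, with adjusted p up to 0.0270 when sibling 2 was counted as a mutant.

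rb1 (ENSDARG00000006782, chromosome 21, 22924130 to 22980873), the retinoblastoma gene, moved the opposite way. Its levels were 10.2, 10.1, 14.1, 13.0 and 11.8 FPKM in mutants 1, 3, 4, 5 and 6, against 17.5, 17.3, 21.7, 19.7 and 24.3 FPKM in siblings 2 to 6. Mutant 4 was the highest mutant and sibling 3 the lowest sibling, and the groups did not overlap. The means were 11.8 ± 1.74 and 20.1 ± 2.94 FPKM (SD, n = 5), and the log2 fold change was -0.72 (SE 0.15, 95% interval -1.03 to -0.40, limma adjusted p = 0.0075). All 22 alternatives kept the call, and the largest adjusted p, 0.0451, came with sibling 2 counted as a mutant. The table rows lpar6b and CU694531.2 overlap the rb1 locus, at means of 1.87 and 7.23 FPKM over all libraries. Neither row was called (limma adjusted p = 0.458 and 0.731). The sources used here do not state whether counting used strand, so reads of overlapping genes may be mixed.

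rbl1 (ENSDARG00000008141, chromosome 6, 51543723 to 51574006), the p107 gene, did not pass the test. It was at 15.6, 13.7, 14.5, 17.3 and 15.5 FPKM in mutants, against 14.0, 22.7, 24.0, 18.9 and 19.0 FPKM in siblings. Siblings 3 to 6 all lay above every mutant, while sibling 2 lay among the lowest mutants. The log2 fold change was -0.32 (SE 0.15, 95% interval -0.66 to 0.01, limma adjusted p = 0.190). Without sibling 2 it was -0.44 (limma adjusted p = 0.0526), still short of the threshold.

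The mix of pocket protein transcripts therefore differed between the groups. rbl2 made up 14.6 to 19.5% of the summed FPKM of the 3 genes in mutants and 2.28 to 5.11% in siblings. rb1 made up 32.8 to 42.2% in mutants and 41.9 to 54.9% in siblings, where only mutant 4 and sibling 3 overlapped. The share of rbl1 was similar in range, 43.3 to 50.2% and 42.1 to 54.9%. The rb1 level was 1.79 to 2.89 times the rbl2 level in mutants and 9.54 to 24.0 times in siblings. The sum of the 3 was 29.0 to 35.8 FPKM in mutants and 33.2 to 47.2 FPKM in siblings, with sibling 2 at the bottom of its group and the remaining siblings above every mutant. These shares are descriptions of the values above and were not tested.

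**Figure D2:**
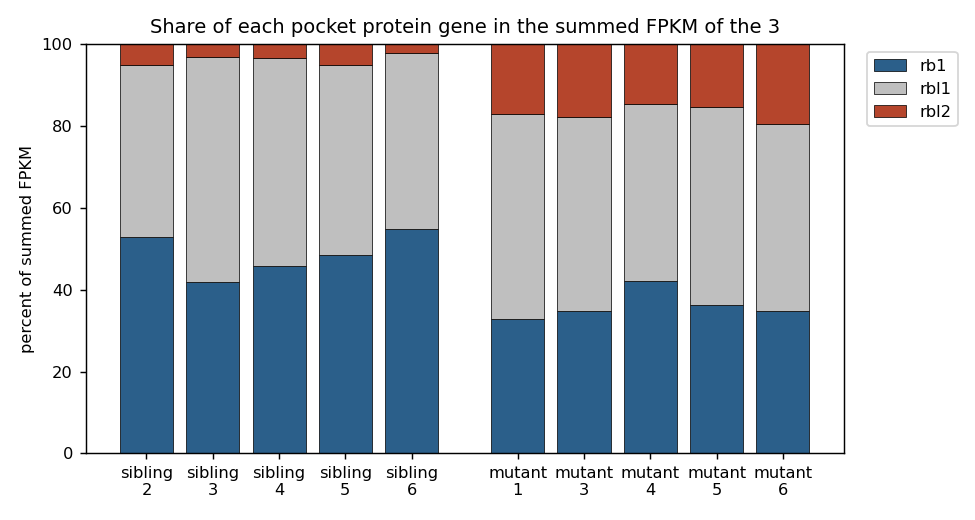
Stacked bars of the percent of the summed FPKM of rb1, rbl1 and rbl2 that each gene holds (vertical axis) in each of the 10 libraries. The rbl2 segment is 14.6 to 19.5% in mutants and 2.28 to 5.11% in siblings.

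ccnd1 (ENSDARG00000101637, chromosome 7, 54400402 to 54409943), whose cyclin opens the phosphorylation of the pocket proteins, varied widely within both groups. It was at 41.3, 84.5, 123.9, 76.6 and 126.9 FPKM in mutants, against 62.6, 95.9, 124.9, 73.6 and 166.9 FPKM in siblings. Mutant 1 and sibling 2 were the lowest of their groups, and the highest library exceeded the lowest by 3.07 times in mutants and 2.66 times in siblings. The log2 fold change was -0.22 with a 95% interval of -0.95 to 0.50 (limma adjusted p = 0.708). The sign turned without mutant 1, to 0.03 (limma adjusted p = 0.960), and with the epidermal marker mean as a covariate, to 0.11 (limma adjusted p = 0.737).

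ccnd2a (ENSDARG00000051748, chromosome 25, 16877545 to 17142679) and ccnd3 (ENSDARG00000027391, chromosome 22, 499994 to 510037) encode the other D cyclins among the 10 genes. ccnd2a was at 5.88, 8.49, 11.6, 9.04 and 11.3 FPKM in mutants, against 11.9, 7.90, 5.99, 6.80 and 6.16 FPKM in siblings. Sibling 2 was the highest of all 10 libraries and mutant 1 the lowest, each against the rest of its own group. The log2 fold change was 0.24 (SE 0.21, 95% interval -0.23 to 0.70, limma adjusted p = 0.511). Without both mutant 1 and sibling 2 it was 0.52 and passed the test (limma adjusted p = 0.0458). With the replicate number as a block, a fit in which those libraries have no partner, the value was the same and did not pass (limma adjusted p = 0.0947).

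ccnd3 was close to the limit of detection. It was listed at 0.311, 0.326, 0, 0 and 0.653 FPKM in mutants, against 0.241, 1.01, 1.47, 0.221 and 0.247 FPKM in siblings. Siblings 3 and 4 stood above every mutant, and siblings 2, 5 and 6 lay among the mutants. It failed the filter, and in a fit with no filter its limma adjusted p was 0.473. An exact 0 in this table can be a failed estimate, since 24 rows averaging 100 FPKM or more have a 0 in 1 or more libraries. Of the summed FPKM of ccnd1, ccnd2a and ccnd3, ccnd1 held 87.0 to 91.5% in mutants and 83.8 to 96.3% in siblings. These ranges overlapped, and ccnd1 was dominant in every library. ccnd2b, a further D cyclin gene kept in a surrounding list, was not part of this sum.

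cdk6 (ENSDARG00000070228, chromosome 19, 40661577 to 40741429), the more abundant of the D cyclin kinases, was at 30.5, 33.9, 29.2, 26.6 and 29.8 FPKM in mutants, against 26.0, 21.7, 27.6, 13.3 and 24.3 FPKM in siblings. Sibling 4 was the single sibling above any mutant, and it exceeded only mutant 5. The log2 fold change of 0.43 (SE 0.18, 95% interval 0.03 to 0.83) had an unadjusted p of 0.0379 and a limma adjusted p of 0.145, and 0 of 22 alternatives called it. cdk4 (ENSDARG00000087937, chromosome 11, 170968 to 179157), the partner kinase, was at 7.70 to 10.3 FPKM in mutants (median 8.04) and 8.69 to 11.8 FPKM in siblings (median 8.97). Its log2 fold change was -0.16 (95% interval -0.48 to 0.15, limma adjusted p = 0.493). The NCKAP1L row (179047 to 197220) overlaps the cdk4 locus only at the end of higher coordinates. That row fell from 3.08 to 0.603 FPKM (limma adjusted p = 8.92e-04), and its part in the cdk4 level was not tested. The cdk6 level was 2.59 to 3.83 times the cdk4 level in mutants and 1.48 to 2.99 times in siblings. Those ratios overlap through mutant 5 and sibling 2, and they were not tested.

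ccne2 (ENSDARG00000098529, chromosome 16, 40625710 to 40635748) encodes an E cyclin, whose gene is a classic target of E2F in mammals. Its levels were 1.65, 2.45, 5.09, 3.23 and 4.90 FPKM in mutants, against 5.55, 5.80, 9.56, 6.23 and 12.6 FPKM in siblings. The groups did not overlap, but mutants 4 and 6 came close to siblings 2 and 3. The means were 3.47 ± 1.51 and 7.96 ± 3.08 FPKM (SD, n = 5), and the log2 fold change was -1.01 (SE 0.28, 95% interval -1.61 to -0.41, limma adjusted p = 0.0303). The call ended when mutant 1, 3 or 5 or sibling 4 or 6 was left out (limma adjusted p = 0.0514, 0.0716, 0.0573, 0.0742 and 0.0658), with sibling 2 counted as a mutant (0.0627) and with no filter on low values (0.0666). The row ENSDARG00000100586 (40571706 to 40634018) overlaps most of the ccne2 locus, at a mean of 6.04 FPKM in mutants and 2.58 FPKM in siblings (limma adjusted p = 0.431), with values near 0 in mutant 1 and siblings 4 and 5. Reads of these overlapping genes may be mixed, and the part of this row in the ccne2 level was not tested.

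ccne1 (ENSDARG00000098622, chromosome 7, 45747466 to 45757513), the paralogous E cyclin gene, was at 2.28, 1.08, 2.48, 1.54 and 2.09 FPKM in mutants, against 3.37, 0.792, 2.34, 2.33 and 2.33 FPKM in siblings. Sibling 2 held the highest level and sibling 3 the lowest, so the sibling range enclosed the mutant range. The log2 fold change was -0.13 (SE 0.24, 95% interval -0.66 to 0.40, limma adjusted p = 0.773), and it turned to 0.10 with sibling 2 counted as a mutant. The ccne2 level was 0.723 to 2.34 times that of ccne1 in mutants and 1.65 to 7.32 times in siblings. The 2 paralogs were not tested against each other.

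**Figure D3:**
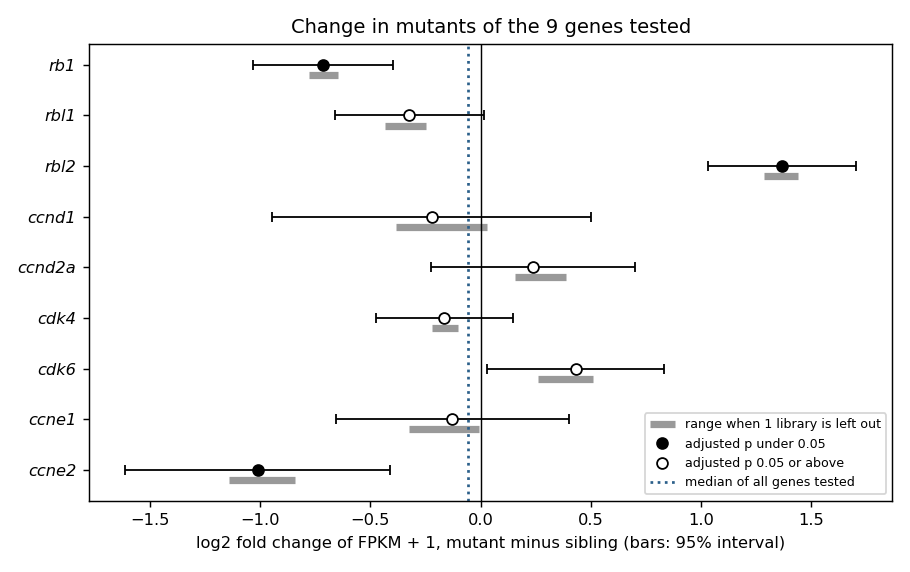
Log2 fold change of FPKM + 1, mutant minus sibling (horizontal axis), for the 9 genes tested, with 95% intervals as thin bars and the range over fits that leave out 1 library as grey bars; filled points passed an adjusted p of 0.05. rbl2 is at 1.37, rb1 at -0.72 and ccne2 at -1.01, and the dotted line marks the median of all genes tested, -0.06.

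Libraries differed in epidermal markers, and ccne2 and ccnd1 were low in those with the most. The mean log2(FPKM + 1) of the 22 epidermal rows tested was 4.19 in mutant 1, 3.82 in sibling 2, 3.55 in mutant 3 and 3.45 in mutant 5, and 2.77 to 3.03 in the other libraries. In mutants, ccne2 was lower in libraries 1, 3 and 5 than in libraries 4 and 6, and ccnd1 was too. rb1 was also lowest in mutants 3 and 1 (10.1 and 10.2 FPKM), but mutant 5 (13.0 FPKM) lay above mutant 6 (11.8 FPKM). In siblings, rb1 was lowest in siblings 3 and 2 (17.3 and 17.5 FPKM). Sibling 2 had the lowest ccne2 and ccnd1 of its group, but siblings 3 to 6 showed no such order for ccne2: sibling 3, at an epidermal mean of 2.81, had 5.80 FPKM, and sibling 4, at 3.03, had 9.56 FPKM. The summed erythroid markers were lowest in mutant 1 (2587 FPKM) and sibling 2 (5135 FPKM) within their groups. They were highest in mutant 4 (9038 FPKM) and sibling 6 (22963 FPKM). Most of each sum came from the globin rows hbae3 and hbbe3. Across the mutants ccne2 ranked in the order of this sum, and across the siblings ccnd1 did. The order was close but not the same for ccnd1 in mutants, for ccne2 in siblings and for rb1 in both groups. No fit used the erythroid sum as a covariate, and its part in these levels was not tested. With the epidermal mean as a covariate the log2 fold change was -0.77 for ccne2, -0.64 for rb1 and 1.35 for rbl2 (limma adjusted p = 0.0260, 0.0097 and 4.35e-04), so all 3 calls held in that fit. Without both mutant 1 and sibling 2 the values were -0.94, -0.71 and 1.40 (limma adjusted p = 0.0401, 0.0133 and 0.0011). Myeloid markers, whose summed level separates the groups completely, cannot be told apart from the genotype in the same way. The same holds for mrc1a, stab1, f5 and pax6a, whose ranges were also apart. So were those of pfn1, 1 of the 22 epidermal rows in the mean used as a covariate.

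**Figure D4:**
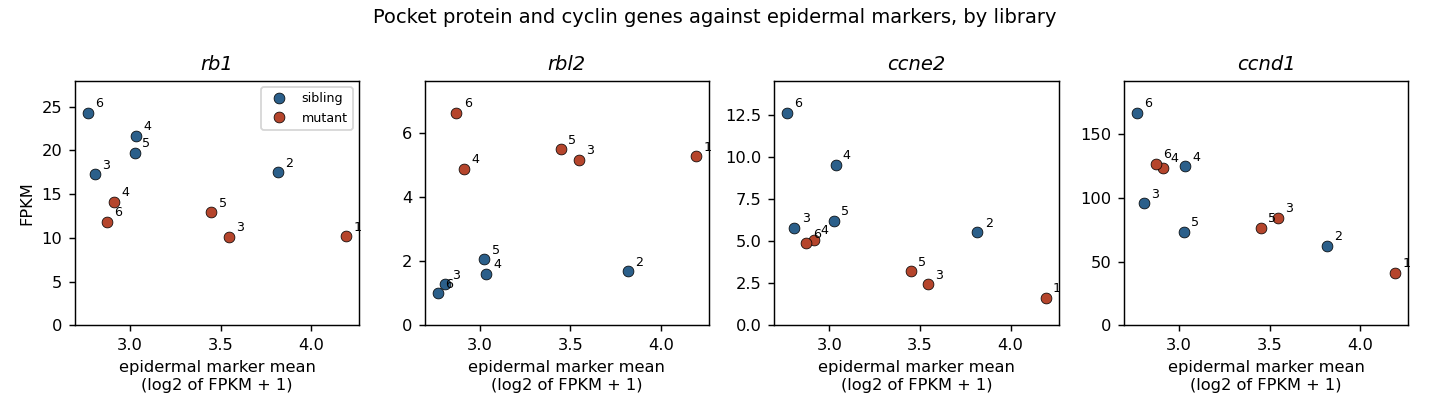
FPKM of rb1, rbl2, ccne2 and ccnd1 (vertical axes, starting at 0) against the mean log2(FPKM + 1) of 22 epidermal marker rows (horizontal axes), 1 point per library with its replicate number. Mutant 1 (4.19) and sibling 2 (3.82) lie farthest right, and the rb1 and rbl2 levels stay separated by group at both ends.

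Of 10 tested rows of E2F and DP genes, 5 were lower in mutants and 0 higher, beside 8.74% and 5.59% over all genes tested. The list was not limited to E2Fs that pocket proteins bind, and its median was -0.54 (log2 fold change). The largest fall on the log2(FPKM + 1) scale was that of e2f8, an atypical E2F that represses, at 4.06 to 11.6 FPKM in mutants (median 6.89) and 22.7 to 27.7 FPKM in siblings (median 25.7). Its log2 fold change was -1.78 (SE 0.23, limma adjusted p = 4.99e-04), and the call ended only with sibling 2 counted as a mutant (0.0574). e2f2, an activating E2F, was at 1.79, 1.59, 3.09, 2.34 and 2.75 FPKM in mutants, against 4.79, 6.61, 10.2, 7.47 and 12.4 FPKM in siblings (limma adjusted p = 0.0017, log2 fold change -1.45). The groups did not overlap for either gene, and e2f2 was called in all 22 alternatives. By the ratio of mean FPKM, sibling over mutant, e2f2 (3.59) and e2f8 (3.56) were nearly equal.

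The other E2F calls were weaker. e2f1, an activating E2F, had means of 2.33 and 5.42 FPKM (limma adjusted p = 0.0360; called in 13 of 21 alternatives), and e2f7, an atypical repressor, 7.25 and 10.1 FPKM (0.0419; 8 of 22). tfdp1b, a DP partner needed for DNA binding, had means of 2.74 and 6.55 FPKM (limma adjusted p = 0.0157; 20 of 21). e2f3 missed the threshold at 5.53 and 8.03 FPKM (limma adjusted p = 0.0512) although its ranges did not overlap. e2f4, the main partner of p107 and p130 in mammals, was at 21.3 and 19.0 FPKM (limma adjusted p = 0.590). The number of rows called lower ran from 3 to 7 over the alternatives.

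The DREAM and MuvB list holds the complex that p130 or p107 joins in resting cells, and the activators B-Myb and FoxM1 that take its place later in the cycle. Of 7 tested rows 4 fell and 0 rose, beside 8.74% and 5.59% over all genes tested, with a list median of -0.68. lin54, the DNA-binding subunit, was at 8.77 ± 1.37 FPKM against 15.9 ± 2.06 FPKM (SD, n = 5; limma adjusted p = 0.0041), and foxm1 at 5.06 and 8.68 FPKM (limma adjusted p = 0.0122). The B-Myb gene mybl2b fell from 11.2 to 6.48 FPKM (limma adjusted p = 0.0291; called in 16 of 22 alternatives). Its paralog mybl2a was at 4.52 FPKM in mutants and 3.68 FPKM in siblings and did not pass (log2 fold change 0.21, limma adjusted p = 0.568). The histone chaperone gene rbbp4 had means of 19.7 and 31.9 FPKM (limma adjusted p = 0.0455; 7 of 22). Calls of this list dropped to 1 with sibling 2 counted as a mutant and to 2 with the replicate block, without mutant 3 or 6, and without sibling 3, 4 or 6.

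Among cyclin-dependent kinase inhibitors the tested rows split, with 1 higher, 1 lower and 4 not called. Over all genes tested 5.59% were higher and 8.74% lower. cdkn1a, the p21 gene, which can inhibit Cdk2 and cause pocket proteins to stay unphosphorylated, was at 56.3 to 98.8 FPKM in mutants and 7.56 to 36.8 FPKM in siblings (limma adjusted p = 0.0058, log2 fold change 1.74, SE 0.34). Among siblings it was highest in sibling 2, yet below every mutant. cdkn1cb, a p57 gene, had means of 0.854 and 2.86 FPKM (limma adjusted p = 0.0173), and its call ended with sibling 2 counted as a mutant (0.326). cdkn1ba, a p27 gene, was at 11.8 and 8.46 FPKM and did not pass (limma adjusted p = 0.166). The INK4-type genes cdkn2a/b, cdkn2c and cdkn2d, whose products block Cdk4 and Cdk6, had means of 0.209, 0.347 and 0.419 FPKM over all libraries and failed the filter.

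In a list of other cyclins, kinases and activators, not all of them particular to G1 and S phase, 2 of 11 tested rows were higher and 4 lower. Over all genes tested the shares were 5.59% and 8.74%. cdk2, the partner of cyclin E, was at 3.99, 6.91, 9.81, 9.33 and 6.89 FPKM in mutants, against 14.1, 8.42, 16.5, 22.7 and 24.0 FPKM in siblings. Sibling 3 lay below mutants 4 and 5, and the log2 fold change was -1.08 (SE 0.28, limma adjusted p = 0.0255; called in 14 of 22 alternatives). ccna2, the S and G2 cyclin, had means of 19.5 and 36.4 FPKM (limma adjusted p = 0.0199), cdc25b, an activating phosphatase, 13.3 and 36.3 FPKM (0.0019), and cdk1, the mitotic kinase, 3.56 and 8.65 FPKM (0.0343; 11 of 22). The 2 that rose were ccng1, a cyclin that responds to stress, at 186.2 and 75.5 FPKM (limma adjusted p = 4.97e-04), and ccnh. ccnh, the cyclin of the Cdk-activating kinase and of TFIIH, was at 8.38 to 9.71 FPKM in mutants and 2.90 to 3.58 FPKM in siblings (limma adjusted p = 6.19e-05, log2 fold change 1.26, SE 0.12). Its kinase partner cdk7 was at 5.10 and 4.76 FPKM (limma adjusted p = 0.800).

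Of the 27 tested rows of E2F target genes of the G1/S transition 11 fell and 0 rose, with a median of -0.68, and 26 had a log2 fold change below 0. Over all genes tested 8.74% fell, 5.59% rose and 55.5% were below 0. The thymidine kinase gene tk1 was at 6.03 and 20.4 FPKM (log2 fold change -1.56, limma adjusted p = 0.0022) and the maintenance DNA methyltransferase gene dnmt1 at 9.69 and 28.0 FPKM (-1.46, limma adjusted p = 7.84e-04). The polymerase alpha gene pola1 was at 2.06 and 5.16 FPKM (limma adjusted p = 0.0017), and mcm4, a subunit of the replicative helicase, at 37.8 and 71.3 FPKM (0.0081). Ranges did not overlap for any of these 4. pcna, the sliding clamp gene, did not pass at 71.2 to 169.5 FPKM in mutants against 155.3 to 272.3 FPKM in siblings (limma adjusted p = 0.0943), nor did cdt1, a licensing factor gene (0.487). Between 7 and 15 rows fell over the alternatives, with 0 rising in each.

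A list around the degradation of cyclin E and p27 holds ubiquitin ligase genes and genes of their regulators. Of its 12 tested rows 1 was higher and 1 lower, beside 14.3% called in either direction over all genes tested. Their log2 fold changes ran from -1.23 to 0.54, with a median of -0.04. fbxw7, which marks cyclin E for degradation in mammals, was at 16.3 to 24.6 FPKM in mutants and 10.9 to 16.2 FPKM in siblings (limma adjusted p = 0.0348, log2 fold change 0.54, SE 0.15). Sibling 2 and mutant 4, at 16.2 and 16.3 FPKM, nearly touched, and the call ended without any 1 of mutants 1, 3, 5 and 6 and siblings 3, 4, 5 and 6 (0.0559 to 0.0850). fbxo5, the Emi1 inhibitor of the anaphase-promoting complex, fell from 13.9 to 5.90 FPKM (limma adjusted p = 0.0233). skp2, the receptor for p27, was at 34.3 and 28.9 FPKM (limma adjusted p = 0.924).

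Among 12 tested rows of chromatin partners of the pocket proteins 0 rose and 0 fell by limma, although 4 had an unadjusted p under 0.05. Over all genes tested 14.3% were called in either direction. hdac1, a deacetylase recruited by Rb, was at 23.7 and 30.0 FPKM (limma adjusted p = 0.198). Among 15 growth inputs to the D cyclins 1 rose and 1 fell, again beside 14.3% over all genes tested. Their median was -0.06, equal to that of all genes tested. mycb, a Myc gene, was at 63.1 to 108.7 FPKM in mutants and 49.7 to 61.7 FPKM in siblings (limma adjusted p = 0.0164, log2 fold change 0.67). mycla, an L-Myc gene, fell from 33.1 to 19.0 FPKM (limma adjusted p = 0.0460; called in 7 of 22 alternatives), and without sibling 2, its highest library at 51.6 FPKM, adjusted p was 0.0733. The 2 Myc genes moved in opposite directions.

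**Figure D5:**
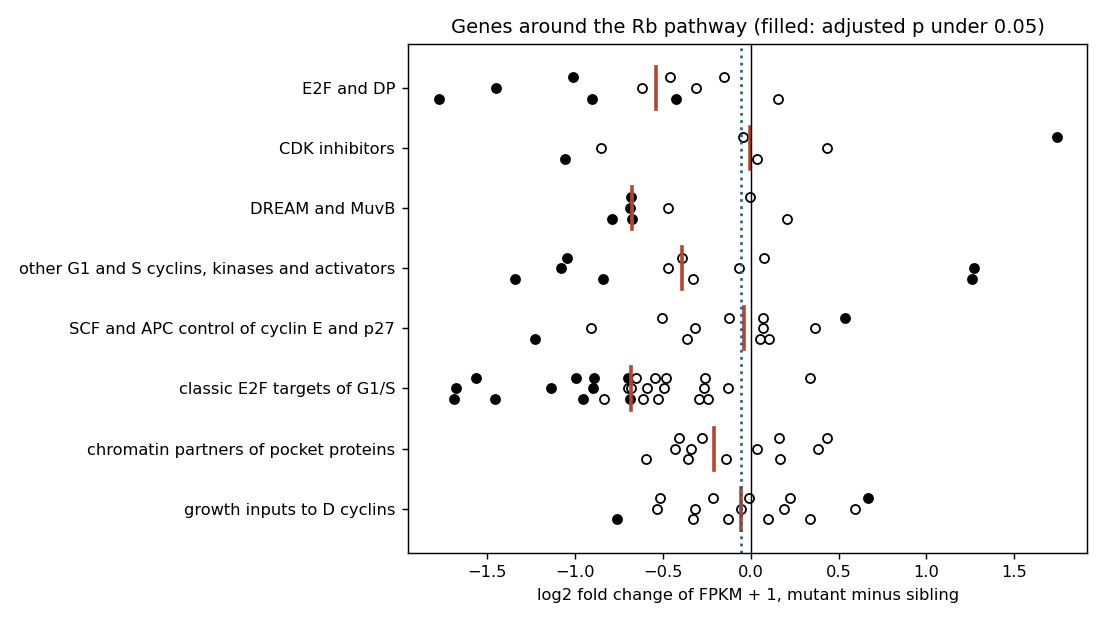
Log2 fold change of FPKM + 1, mutant minus sibling (horizontal axis), of each tested row of the 8 lists around the Rb pathway; filled points passed an adjusted p of 0.05, red bars are list medians and the dotted line is the median of all genes tested. The medians of the E2F, DREAM and E2F target lists lie at -0.54, -0.68 and -0.68.

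The genes whose pattern was most like that of each changed gene were taken as those with the highest Pearson correlation of log2(FPKM + 1) over the 10 libraries, among 5565 or 5566 genes with a mean of at least 5 FPKM. For rb1 they were aars, an alanyl-tRNA synthetase gene (r = 0.99), wdhd1, a replication factor gene (0.98), and rgs12a, a regulator of G protein signalling (0.98). For ccne2 they were cad, which starts pyrimidine synthesis (r = 0.99), mcm2 (0.98) and banf1, a chromatin-bound barrier factor gene (0.98). For rbl2 they included lnx1, a ubiquitin ligase gene (r = 0.98), and prpf3, a U4/U6 splicing factor gene (0.98), both higher in mutants. ccnd1, with no group difference called, was most like tfe3a, a transcription factor gene (r = 0.96), tubg1, the gamma tubulin gene (0.96), and naa15a, an acetyltransferase subunit gene (0.95). The libraries share depth, scaling and genotype, so these correlations are descriptions with no test.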

How the data were processed

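Per its header, the deposited table gives 1 FPKM value for each gene in each library. Per the submitters' processing notes the authors used the GRCz10 build with Cufflinks 2.2.1, STAR 2.4.2a, Trim Galore and Picard, and the labels' protocols give rRNA depletion and a stranded kit. Libraries were grouped by title. Table starts had 1 base added, after which 37 of 37 mitochondrial genes matched the reference gene table. Log2(FPKM + 1) of genes with a mean of at least 1 FPKM was tested in R 4.3.3 by limma 3.58.1, with a variance trend in eBayes, and Benjamini-Hochberg adjustment over all 13003 genes. The table gives FPKM and not counts, so no count test was run. The script was tested on simulated data, with 50 genes changed at each fold on the log2(FPKM + 1) scale. It recovered 4% of 1.5-fold, 56% of 2-fold and 92% of 3-fold changes, and called 7 unchanged genes. A gene that did not pass may therefore still differ by a small fold. The changed genes were a far smaller share of the 12718 run than the 14.3% called in the data. They were drawn from genes with a mean log2(FPKM + 1) above 1.5. The adjusted threshold was thus stricter in the simulation, so these rates need not apply to the data. Relative depth was read from the peak of the log2 ratios of low values between mutant 1 and each library.

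Of 216 listed symbols 206 matched by table symbol, 7 by gene ID and 3 not at all. The 10 genes and the 8 lists around them were chosen with earlier results of these data known. Named genes are the 10, sf3b1, and from each list the called rows and those of smallest p up to 4; e2f3, e2f4, cdk7, pcna, cdt1, skp2, hdac1 and the INK4-type genes were named for their roles after their values were seen. Some genes that this rule admits are not reported here. Alternatives covered the pseudocount, filter, scaling, variance model, sibling 2 as mutant, replicate block, an epidermal covariate and leaving out libraries. Python 3.11.15, pandas 2.3.3, numpy 2.4.6 and matplotlib 3.10.9 were used.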

Additional observations from a re-analysis of the deposited data

How the results depend on the processing

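The calls of rb1 and rbl2 held in every one of the 22 and 21 alternatives that tested them, with log2 fold changes of -0.78 to -0.57 and 0.68 to 1.80. rbl2 has a mean under 5 FPKM, so 0 of the 10 genes were called higher at a mean of at least 5 FPKM. ccne2 kept its direction, at -1.21 to -0.60, but was called in 15 of 22: it missed the threshold with no filter on low values (-1.01) and with sibling 2 counted as a mutant (-1.005), and when 1 library was left out its value ran from -1.14 to -0.84, with 5 of 10 fits calling it. Genes of the 10 called lower therefore numbered 1 in those fits and 1 to 2 with a library left out. Without both mutant 1 and sibling 2, ccnd2a was called at 0.52, which made 2 genes called higher. ccnd1 changed sign without mutant 1 (0.029; range with a library left out -0.38 to 0.029) and with the epidermal covariate (0.11), and ccne1 with sibling 2 counted as a mutant (0.10); none of these values was called. Over all genes, 300 rose and 461 fell with sibling 2 counted as a mutant, 755 fell at a mean of at least 5 FPKM, and falling genes numbered 741 (without sibling 4) to 1238 with a library left out. Quantile normalization gave 987 rising and 1008 falling genes and median of ratios scaling 945 and 981, against 727 and 1137, with the median of all genes moved by 0.07 and 0.06 on the log2 scale. The causes of these shifts were not tested.

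Libraries share the replicate numbers 3 to 6 across groups. Same-numbered libraries had correlations of deviations from their group means of -0.028, 0.0902, 0.104 and 0.151. Mutants 5 and 6 correlated best with the sibling of their own number, and mutants 3 and 4 did not. These values do not settle whether the libraries are paired. No label says that a number marks a shared clutch or day, so the numbers were not taken as pairs. With the replicate block 701 genes rose and 1158 fell, rb1, rbl2 and ccne2 stayed called at -0.71, 1.40 and -0.94, and none of the other 6 genes was called. Among 32 called genes of the surrounding lists, 9 were called in every alternative that tested them and 0 changed sign. Absolute depth is unknown, so the counting error of ccnd3, ccne1 and rbl2, with means under 5 FPKM, could not be given.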
